A study of Mus musculus with 9 samples.

Results

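Galectins are secreted and cytosolic lectins that bind beta-galactoside sugars on glycoproteins and glycolipids. The genes described here are Lgals1, Lgals3, Lgals8 and Lgals9, which encode galectins, and Lgals3bp, which encodes a secreted glycoprotein ligand of galectin-3 and not a galectin. They were taken by gene symbol as the 5 chosen members of the family and its partner, out of 31053 genes in the files, whose annotation holds 6 more genes named Lgals or Grifin. CD11b-positive cells sorted from the brains of C57BL/6 mice (C57BL/6J in the methods of the study), with the cerebellum removed, were profiled with 10x Genomics 3′ single-cell RNA sequencing. Ctrl mice were untreated, with 1 brain in each of 3 libraries. D0 mice received chow with PLX5622, an inhibitor of the CSF1R receptor that microglia need to survive, at 1200 mg/kg for 14 days, and D2 mice received the same and then control chow for 2 days. Each D0 and D2 library pooled 2 brains, and all mice were adult females with no engineered allele.

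Galectin-1, the prototype member, acts as a dimer and is known for cross-linking surface glycoproteins and for effects on T cells. Galectin-3, whose antibody name is MAC2, joins a sugar-binding domain to a long flexible tail, and is widely used as a marker of activated macrophages and of microglia that have left the homeostatic state. Galectin-8 and galectin-9 carry a pair of linked sugar-binding domains. Galectin-8 recognises damaged endosomes and lysosomes, and galectin-9 is a ligand of the receptor TIM-3, encoded by Havcr2.

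The 9 libraries held 36391 barcodes with 20257894 to 61230741 UMIs each, a UMI (unique molecular identifier) being 1 counted RNA molecule. The third D2 library was left out of the comparisons, as in the study, and its values are given separately. Of the 33245 barcodes in the other 8 libraries, 28655 passed the limits on UMIs, genes and mitochondrial share, with median depths of 4810 to 9243 UMIs per cell. Pairs of libraries shared at most 7 barcodes. The matrix headers name Cell Ranger 3.0.2 for the first Ctrl library, all D0 libraries and the first and second D2 libraries, and 3.1.0 for the rest. Cells were grouped without the Lgals and Grifin genes, and each group was named by marker genes. All 10 microglia markers were over 20 CPM in microglia-like cells, where CPM are the UMIs of a gene in the summed cells, scaled to a common total of UMIs. This also held in other classes, among them border-associated macrophage- and neutrophil-like cells. The 10 markers summed to 24904 CPM in microglia-like, 18210 CPM in mitotic, 16162 CPM in unnamed and 15074 CPM in border-associated macrophage-like cells, and to 6064 CPM or less in the rest. CPM of 3′ UMIs are not corrected for gene length, so levels are compared between cells of one gene and not between genes.

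Lgals3bp and Lgals9 stood apart from the other members in cells with raised interferon-response genes, as described further on. The starts of the members were searched for letters like those bound by interferon-regulated factors. RefSeq windows from 250 bases before to 50 after the start (GRCm38.p6) were matched for 4 of the 5 members, all but Lgals1. The pattern of GAAA, any 2 bases and GAAA, searched on both strands, was found in 3.44% of 32851 windows of all genes and in 1 member, Lgals9, which held it at 2 places. The shorter pattern AANNGAAA, which overlaps the longer one and also lies within it, was found in 23.9% of all windows and in 2 members, Lgals9 and Lgals3bp. Lgals9 held the shorter pattern also 151 bases before the start. Neither pattern was found in the windows of Lgals3 and Lgals8, which lie around RefSeq starts inside the gene spans given next, and other starts were not searched. The 30 bases around the Lgals9 matches, 55 bases before the start and 16 bases after it, and around the Lgals3bp match, 14 bases before the start, are shown on the gene's strand with the match in capitals (on the reverse strand of the gene for Lgals9).
Lgals9, chr11:78984960-78984989, minus strand: tgacatcagcTTTCTTTTTCtctagacact
Lgals9, chr11:78984890-78984919, minus strand: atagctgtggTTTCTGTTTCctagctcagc
Lgals3bp, chr11:118401955-118401984, minus strand: tgttttctgaaAATCGAAActaggtgaggt
Of the 15 interferon-stimulated genes listed for comparison, 11 had a window, and 7 of these held the longer pattern. These matches are a description of the letters and no binding was measured.

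In GENCODE vM21 (GRCm38) Lgals1 (ENSMUSG00000068220) lies at chr15:78926725-78930465 and Lgals3 (ENSMUSG00000050335) at chr14:47367751-47386160, both on the plus strand. Lgals3bp (ENSMUSG00000033880, chr11:118392751-118402092), Lgals8 (ENSMUSG00000057554, chr13:12439415-12464944) and Lgals9 (ENSMUSG00000001123, chr11:78962974-78984946) are on the minus strand.

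The members were spread over the sorted cells in different ways. Levels per class are means ± SD over libraries with at least 20 cells of that class, and were not tested. Lgals3 was highest in monocyte-like cells, at 2064 ± 414 CPM (n = 7), followed by dendritic cell-like cells at 1036 ± 184 CPM (n = 7), neutrophil-like cells at 720 ± 185 CPM (n = 7) and border-associated macrophage-like cells at 102 ± 94.6 CPM (n = 5). The shallow unnamed cluster had 125 ± 136 CPM (n = 8) and ependymal-like cells 147 CPM in the only library with enough of them. The library values of monocyte-like cells, 1537 to 2634 CPM, lay above those of dendritic cell-like cells, 786 to 1340 CPM, whereas the latter overlapped with neutrophil-like cells, 389 to 900 CPM. Microglia-like cells outside mitosis had 34.6 ± 34.4 CPM (n = 8), mitotic cells 13.1 ± 1.88 CPM (n = 5, the D0 and D2 libraries) and endothelial-like cells 6.65 ± 7.83 CPM (n = 8). In the D0 and D2 libraries alone, Lgals3 was at 10.9 to 15.8 CPM in mitotic cells and at 17.4 to 98.4 CPM in other microglia-like cells, without overlap. How many of all genes lacked such overlap was not counted. The shares of cells with an Lgals3 UMI did overlap there, at 4.66 to 10.3% of mitotic and 4.23 to 14.7% of other microglia-like cells. Mitotic cells were deeper, with a median of 9709 against 6966 UMIs over the 8 libraries. An Lgals3 UMI was found in 90.8% of 523 monocyte-like cells (exact 95% interval 88.0 to 93.2%), 89.1% of 604 dendritic cell-like cells (86.3 to 91.4%) and 71.8% of 1175 neutrophil-like cells (69.2 to 74.4%), against 4.87% of 20528 microglia-like cells (4.58 to 5.17%) and 2.10% of 906 endothelial-like cells (1.27 to 3.26%). Median depths in these classes ran from 3331 UMIs in neutrophil-like to 10565 UMIs in dendritic cell-like cells, and these intervals cover counting error only.

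Lgals1 was highest in lymphoid-like cells, at 1614 ± 50.9 CPM (n = 2, both D0 libraries). Mural-like cells (474 ± 116 CPM, n = 6), dendritic cell-like cells (384 ± 86.4 CPM, n = 7) and monocyte-like cells (350 ± 172 CPM, n = 7) came next, and their library values overlapped. Border-associated macrophage-like cells had 174 ± 87.5 CPM (n = 5), mitotic cells 44.1 ± 18.7 CPM (n = 5, the D0 and D2 libraries) and other microglia-like cells 20.5 ± 21.4 CPM (n = 8). In those 5 libraries mitotic cells were at 26.6 to 65.9 CPM of Lgals1 and other microglia-like cells at 14.9 to 66.1 CPM, which overlapped. Neutrophil-like cells, which were rich in Lgals3, had 3.50 ± 3.30 CPM of Lgals1 (n = 7), and a Lgals1 UMI was found in 17 of 1175 of them, 1.45% (exact 95% interval 0.845 to 2.31%). High Lgals3 was thus accompanied by Lgals1 in monocyte- and dendritic cell-like cells and by little Lgals1 in neutrophil-like cells.

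The levels of the other members were not highest in those cells. Lgals3bp was at 185 ± 21.8 CPM in mitotic cells (n = 5, the D0 and D2 libraries) and 144 ± 54.7 CPM in other microglia-like cells (n = 8), against 57.1 ± 28.6 CPM in monocyte-like (n = 7), 40.9 ± 19.8 CPM in dendritic cell-like (n = 7), 17.8 ± 9.70 CPM in neutrophil-like (n = 7) and 13.8 ± 4.94 CPM in mural-like cells (n = 6). In the D0 and D2 libraries alone, Lgals3bp overlapped between mitotic cells (164 to 213 CPM) and other microglia-like cells (165 to 202 CPM). Lgals9 was at 150 ± 21.3 CPM in mitotic cells (n = 5), 122 ± 11.3 CPM in other microglia-like cells (n = 8) and 113 ± 10.1 CPM in endothelial-like cells (n = 8), which overlapped, and at 41.6 ± 12 CPM in dendritic cell-like (n = 7) and 24.7 ± 16.9 CPM in mural-like cells (n = 6). Lgals8 ran from 63.3 ± 18.4 CPM in border-associated macrophage-like (n = 5) and 62.5 ± 12.8 CPM in microglia-like cells (n = 8) to 23.2 ± 10.2 CPM in neutrophil-like cells (n = 7), apart from 3.86 CPM in the single library with enough ependymal-like cells. The plot of levels by cell class shows these spreads library by library.

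**Figure D1:**
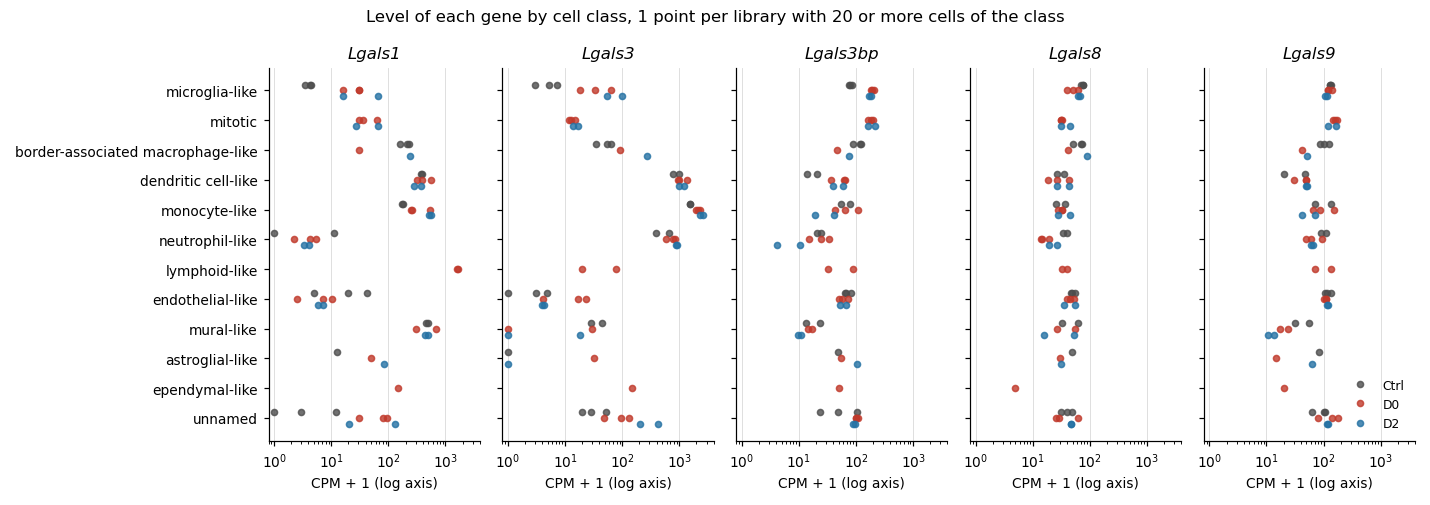
Each point is the level of the gene in 1 library with at least 20 cells of that class, as CPM + 1 on a log axis, coloured by group (Ctrl, D0, D2), for the 8 libraries compared. Lgals3 lies at 1537 to 2634 CPM in monocyte-like cells, Lgals1 at 0 to 10.2 CPM in neutrophil-like cells, and in microglia-like cells the Ctrl points of Lgals1, Lgals3 and Lgals3bp lie under those of D0 and D2, which overlap.

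The 6 further genes of the family had few counts over the 8 libraries. Lgalsl, a galectin-like gene, had 1330 UMIs in all and 257 CPM in pooled mural-like cells, against 3.64 CPM in microglia-like cells. Lgals4 had 164 UMIs, Lgals2 153, Lgals7 12, and Lgals12 and Grifin 1 each.

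CSF1R inhibition (D0) and the 2 days after it (D2) were compared with Ctrl on UMIs summed per library over microglia-like cells, mitotic cells included (20528 and 1633 cells in the 8 libraries). The study reports that this treatment removed most CD11b-positive cells of the brain. A rise or fall below is a difference between the cells present in each group. Survival of some cells and change within cells cannot be told apart here. All 5 members passed the filter on low counts. CPM are scaled to the total UMIs of the summed cells, whereas the log2 fold changes also hold a scaling factor per library (TMM). A fold change can therefore differ from the ratio of the CPM beside it. Lgals1, Lgals3 and Lgals3bp rose in D0 and in D2, and Lgals8 and Lgals9 did not pass the test. Across the 12405 genes tested, 19.7% were called in D0 and 18.6% in D2 by edgeR at an adjusted p under 0.05, and 3 of the 5 members were called in each. The median log2 fold change of the members was 1.46 in D0 and 1.25 in D2, beside -0.05 and -0.03 over all genes tested. The members were chosen with earlier results of these data known, so their count and median are a description. Both comparisons use the same Ctrl libraries and are not independent. An unadjusted p under 0.05 (edgeR) was found for 34.1% of all genes in D0 and 32.7% in D2. How many of all genes did not overlap with Ctrl was not counted, so such statements below describe single members only.

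Lgals1 was at 2.76, 3.36 and 3.26 CPM in the Ctrl libraries, at 16.7, 30.1 and 34.0 CPM in D0 and at 16.5 and 66.1 CPM in D2. All treated libraries were above all Ctrl libraries, and the second D2 library was the highest. The log2 fold change was 3.33 ± 0.51 (SE) in D0, with an adjusted p of 0.00177, and 3.84 ± 0.54 in D2, with an adjusted p of 0.00114 (edgeR). Without that second D2 library the D2 value was 2.48, at an adjusted p of 0.00421, and with the third D2 library included it was 5.54, at an adjusted p of 0.00809. With that library included the D0 call was lost, at a log2 fold change of 3.34 and an adjusted p of 0.0802.

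Lgals3 was at 4.34, 2.03 and 6.28 CPM in Ctrl, at 57.2, 29.1 and 16.5 CPM in D0 and at 48.0 and 84.7 CPM in D2. The groups did not overlap with Ctrl, and the D0 libraries varied among themselves from 16.5 to 57.2 CPM. The log2 fold change was 3.20 ± 0.50 in D0, with an adjusted p of 0.00203, and 4.07 ± 0.53 in D2, with an adjusted p of 0.000766 (edgeR). Both calls held in every alternative setting run.

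Lgals3bp started from a higher level in Ctrl, at 78.4, 83.8 and 76.1 CPM. It was at 178, 187 and 202 CPM in D0 and at 186 and 165 CPM in D2, with no overlap with Ctrl and a small spread within groups. The log2 fold change was 1.46 ± 0.11 in D0, with an adjusted p of 2.7e-05, and 1.25 ± 0.12 in D2, with an adjusted p of 0.000145 (edgeR). With the third D2 library included, the D2 call was lost, at a log2 fold change of 0.94 and an adjusted p of 0.106.

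Lgals8 was at 76.4, 76.0 and 69.3 CPM in Ctrl, at 58.4, 46.1 and 38.5 CPM in D0 and at 58.3 and 60.8 CPM in D2. In CPM the treated libraries all lay under the Ctrl libraries. The log2 fold changes of -0.43 ± 0.14 (adjusted p = 0.0604) and -0.20 ± 0.16 (adjusted p = 0.414), which hold the scaling factors, did not pass the edgeR test. With the replicate number as a block, the D0 value was -0.44 at an adjusted p of 0.0337 (edgeR). The D0 value passed in 3 of 20 alternative settings, this one included, and also without the first D0 library, at a log2 fold change of -0.56 and an adjusted p of 0.0209.

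Lgals9 was at 128, 129 and 131 CPM in Ctrl, at 120, 124 and 143 CPM in D0 and at 113 and 114 CPM in D2. In CPM the Ctrl and D0 libraries overlapped, with a mean of 129 CPM in both groups, and both D2 libraries lay under all Ctrl libraries. The log2 fold changes of 0.20 ± 0.11 in D0 (adjusted p = 0.231) and -0.08 ± 0.13 in D2 (adjusted p = 0.716) did not pass the edgeR test.

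**Figure D2:**
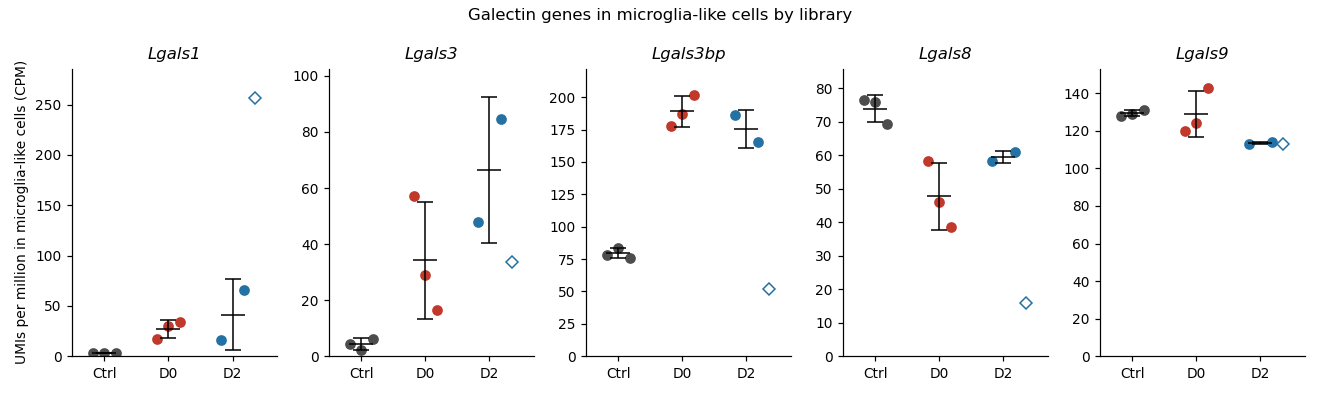
Each filled point is the CPM of the gene in microglia-like cells of 1 library, with the mean and SD of each group in black (n = 3 for Ctrl and D0, n = 2 for D2), and the open diamond is the third D2 library, which is in no mean. The D0 and D2 points of Lgals1, Lgals3 and Lgals3bp all lie above the Ctrl points, at 16.5 CPM or more for Lgals1 and Lgals3 against at most 6.28 CPM in Ctrl.

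No member was called between D2 and D0 in microglia-like cells, where edgeR called 0 of 12405 genes (0%), with 847 at an unadjusted p under 0.05, and DESeq2 called 28. Lgals3 had a log2 difference of 0.87 ± 0.48 and Lgals1 of 0.51 ± 0.49, with adjusted p of 0.699 and 0.774.

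Markers of other cell types within microglia-like cells were measured beside these results. The summed level of the 11 monocyte markers was 8.16 to 9.66 CPM in Ctrl, 11.6 to 18.8 CPM in D0 and 17.0 to 29.1 CPM in D2, and 0 to 2 of them were at 0. The 11 neutrophil markers summed to 212 to 266, 195 to 388 and 280 to 436 CPM. The summed levels of the 9 dendritic cell markers and the 10 border-associated macrophage markers were lower in D0 and D2 than in Ctrl. Dendritic cell markers were at 265 to 367 CPM in Ctrl and at 118 to 216 CPM in the other groups. Border-associated macrophage markers were at 212 to 241 CPM and, with 2 of them at 0, at 117 to 153 CPM. In microglia-like cells outside mitosis only 1 marker of each list was over 20 CPM, so each sum can rest on few genes. If every Plac8 UMI in microglia-like cells had come from monocyte-like cells, the Lgals3 that came with it would be 0.642 to 1.87 CPM in Ctrl and 1.83 to 8.40 CPM in D0 and D2. The same sum for S100a9 of neutrophil-like cells gave at most 0.490 CPM in the 8 libraries, and for Cd209a of dendritic cell-like cells at most 0.616 CPM. Cd209a itself was at 0.0378 to 0.267 CPM in Ctrl microglia-like cells and at 0.157 to 0.74 CPM in D0 and D2. It thus overlapped between groups and did not show the fall of the summed dendritic cell markers. The 7 mitotic markers summed to 8.65 to 18.5 CPM in Ctrl and to 517 to 779 CPM in D0 and D2, and the 10 microglia markers to 28454 to 32741 CPM and to 17437 to 22858 CPM. The part of these markers in the changes of the members was not tested.

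The rise was also seen as a share of cells. With each cell thinned to 2000 UMIs, an Lgals3 UMI was found in 0.406% ± 0.0913 of Ctrl microglia-like cells (SD, n = 3), 2.49% ± 0.923 in D0 (n = 3) and 4.83% ± 1.99 in D2 (n = 2). For Lgals1 the shares were 0.458% ± 0.0564, 3.31% ± 1.34 and 4.39% ± 3.01, and for Lgals3bp 13.1% ± 0.760, 27.0% ± 0.877 and 26.4% ± 2.40. None of these groups overlapped with Ctrl, but the two-sided exact permutation test cannot go below 0.1 with 3 libraries against 3, or below 0.2 with 2 against 3. The share of all genes without such overlap was not counted, so the lack of overlap is not read as particular to the members. Lgals1, Lgals3, Lgals3bp and Lgals8 (13.8% ± 0.500, 9.37% ± 1.37 and 12.6% ± 0.544) reached these smallest values in D0 and in D2, with an adjusted p of 0.222 over 20 comparisons. The share of cells with a Lgals9 UMI was 22.7% ± 0.958 in Ctrl, 21.5% ± 1.87 in D0 (exact permutation p = 0.4) and 17.9% ± 1.29 in D2. In D2 it did not overlap with Ctrl and also reached the smallest value (exact permutation p = 0.2, adjusted p = 0.222). Unthinned, the Lgals3 share ran from 0.882 to 1.26% in Ctrl and from 4.69 to 13.9% in the D0 and D2 libraries.

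Among endothelial-like cells thinned in the same way, 0 of 120 Ctrl cells held an Lgals3 UMI, which allows a share of up to 2.50%, with 2 of 330 in D0 (0.606%) and 0 of 228 in D2, which allows up to 1.32%. Lgals1 was found in 3 of 120 Ctrl (2.50%), 1 of 330 D0 (0.303%) and 2 of 228 D2 endothelial-like cells (0.877%). The Ctrl share of microglia-like cells with a Lgals1 UMI was not above that of endothelial-like cells. Whether endothelial-like cells make Lgals1 themselves was not tested, so their share need not be a background. For Lgals3 in Ctrl the 120 cells were too few to decide, and 13 of the 35 Ctrl microglia-like cells with Lgals3 held 2 or more of its UMIs. Over the pooled libraries, the D0 and D2 shares of both genes in microglia-like cells were above those in endothelial-like cells of the same group. This was not tested over libraries. The endothelial-like share of Lgals1 itself differed between groups, at 2.50% in Ctrl, 0.303% in D0 and 0.877% in D2, so it gives no fixed floor. Single libraries were less clear. Where 0 endothelial-like cells held the gene, some shares lay under the limit that such a count allows. These were 3.36% for Lgals1 and 3.19% for Lgals3 in the second D0 library (limit 3.49%) and 1.45% for Lgals3 in the third (limit 2.61%). In the first D0 library 1 of 129 endothelial-like cells held Lgals1 and 2 held Lgals3, so that limit does not apply. Microglia-like shares there were 1.95% and 2.84%, against 0.775% and 1.55%. In the first D2 library the Lgals1 share was 2.27%, against 2 of 129 endothelial-like cells (1.55%). Differences within single libraries were not tested. Unthinned, microglia-like cells had a median of 6966 UMIs and endothelial-like cells 3665.5 UMIs.

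Over all kept myeloid cells, which add border-associated macrophage-, dendritic cell- and monocyte-like cells and a shallow unnamed cluster, 3 of the 5 members were again called, where edgeR called 20.3% of 12828 genes in D0 and 17.5% in D2. The log2 fold changes were smaller than in microglia-like cells for Lgals1 (1.75 ± 0.47 in D0, adjusted p = 0.0328, and 1.94 ± 0.51 in D2, adjusted p = 0.0315) and Lgals3 (1.91 ± 0.50, adjusted p = 0.0292, and 2.21 ± 0.54, adjusted p = 0.0233). Those of Lgals3bp were 1.34 ± 0.11 (adjusted p = 9.4e-05) and 1.14 ± 0.12 (adjusted p = 0.000424). The smaller folds of Lgals1 and Lgals3 were not tested against those in microglia-like cells. Of the Lgals3 UMIs of kept myeloid cells, microglia-like cells outside mitosis gave 16.2, 2.40 and 22.3% in the Ctrl libraries, 45.3, 17.6 and 7.79% in D0 and 41.2 and 27.1% in D2, so Ctrl and D0 overlapped. Each of the Lgals1 and Lgals3 calls was lost in 4 to 7 of 19 alternative settings. Among them, the D0 calls of both genes were lost without the first or the third Ctrl library and without the second or the third D0 library, and that of Lgals1 also without the second Ctrl library. The D2 calls of both were lost without the third Ctrl library, and that of Lgals1 also without either of the other Ctrl libraries. Without the second D2 library, Lgals1 had a log2 fold change of 0.67 in D2, at an adjusted p of 0.399, and Lgals3 of 1.38, at an adjusted p of 0.216. In D2 against D0, edgeR called no member and 0 of 12828 genes (0%), with 762 at an unadjusted p under 0.05, and DESeq2 called 27 genes.

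In the cell classes where Lgals3 was high without treatment, the members did not pass the test in D0. Dendritic cell-like cells could be compared in the first and the third Ctrl libraries and all D0 libraries, monocyte- and neutrophil-like cells in the second and the third Ctrl and all D0 libraries. In dendritic cell-like cells Lgals3 was at 970 and 786 CPM in Ctrl and at 992, 959 and 1340 CPM in D0, a log2 fold change of 0.43 ± 0.22 (adjusted p = 0.818). In the same cells edgeR called 0 of 6860 genes (0%), with 385 at an unadjusted p under 0.05, and DESeq2 was not run. Lgals3bp, at 13.1 and 19.5 CPM in Ctrl from 4 UMIs in each and at 60.4, 36.2 and 62.0 CPM in D0, had the largest log2 value of the members there, 1.82 ± 0.46, with an unadjusted p of 0.00285 and an adjusted p of 0.818 (edgeR). In monocyte-like cells Lgals3 was at 1537 and 1549 CPM in Ctrl and at 1955, 2330 and 2099 CPM in D0, with no overlap among these libraries. The first Ctrl library, with 11 such cells and in no test, had 2095 CPM of Lgals3, within the D0 range. The log2 fold change was 0.51 ± 0.19 at an adjusted p of 0.281, where edgeR called 0.225% of 6669 genes. Lgals1 in monocyte-like cells was at 175 and 179 CPM in Ctrl and at 244, 526 and 261 CPM in D0, with a log2 fold change of 1.05 ± 0.35 and an adjusted p of 0.245. In the 11 cells of the first Ctrl library it was at 407 CPM, also within the D0 range. In neutrophil-like cells, where 3 members passed the filter, Lgals3 had a log2 fold change of 0.71 ± 0.42 (adjusted p = 0.656), and edgeR called 0.096% of 4165 genes.

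The fold changes of these classes in D0 were set against that of microglia-like cells in 1 fit, a comparison added after the data were seen. Microglia-like cells had the lowest Ctrl level of Lgals3 among them, 2.03 to 6.28 CPM. A smaller fold change elsewhere need not be a smaller change in CPM. For Lgals3 the log2 fold change was smaller by -2.27 ± 0.37 in dendritic cell-like (adjusted p = 0.000148), by -2.56 ± 0.29 in monocyte-like (adjusted p = 1.6e-14) and by -2.34 ± 0.38 in neutrophil-like cells (adjusted p = 4.1e-07). For Lgals1 it was smaller by -3.05 ± 0.30 in dendritic cell-like (adjusted p = 7.6e-09) and by -2.12 ± 0.31 in monocyte-like cells (adjusted p = 6e-09), and for Lgals3bp by -1.26 ± 0.33 in monocyte-like cells (adjusted p = 0.0105). In these edgeR fits 2 of 5, 3 of 5 and 1 of 5 members were called in dendritic cell-, monocyte- and neutrophil-like cells, where 2.14%, 2.51% and 1.14% of all genes were called. The test draws the spread of a gene partly from all genes, so these small p do not measure the spread between libraries alone. Without the first Ctrl library, the Lgals3 difference in dendritic cell-like cells was -1.86 at an adjusted p of 0.110 (edgeR), and the Lgals3bp difference in monocyte-like cells was lost without the third Ctrl (-1.12, adjusted p = 0.173) or the second D0 library (-0.90, adjusted p = 0.286). Each of these fits without a Ctrl library had 1 Ctrl library of that class left, which was assumed to vary like the other libraries of the fit. Border-associated macrophage-like cells were not tested, because only 1 D0 library held 20 or more of them. Their Lgals3 was at 63.3, 53.5 and 33.4 CPM in Ctrl (183, 82 and 192 cells), at 91.8, 1377 and 652 CPM in D0 (72, 10 and 9 cells) and at 109 and 267 CPM in D2 (13 and 20 cells). Their Lgals1 was at 233, 158 and 210 CPM in Ctrl, at 29.1, 375 and 480 CPM in D0 and at 121 and 242 CPM in D2. The D0 libraries thus spread widely, no direction is read from them, and libraries of under 20 such cells are in no mean.

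Within microglia-like cells the members marked different clusters, as a description of cells grouped by their other genes and with no test. Clusters led by P2ry13 and Bank1, by Klf2 and Fosb and by Bank1 and Sox4, which held more cells of Ctrl than of D0 or D2, had 1.04 ± 1.75, 1.25 ± 1.10 and 1.07 ± 0.546 CPM of Lgals3 and 3.84 ± 3.31, 2.52 ± 2.27 and 2.77 ± 1.14 CPM of Lgals1 (mean ± SD over libraries with at least 20 cells). Lgals3 was highest in the cluster with the inflammatory genes Dusp2, Gadd45b and Tnf, at 169 ± 139 CPM (n = 7), and in the one with Ccl12 and the replication genes Mcm5 and Mcm6, at 100 ± 89.6 CPM (n = 6). The Lgals3 values of both clusters varied widely between libraries. Lgals1 was at 43.6 ± 29.5 CPM in the Tnf cluster and at 56.0 ± 61.0 CPM in the cluster led by Igf1, a growth factor, and Htra3 (n = 7). Lgals3 in that Igf1 cluster was at 30.3 ± 34.9 CPM.

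Lgals3bp and Lgals9 had their highest levels in the cluster led by the interferon-response genes Ifit3, Ifit2 and Isg15 (873 cells). Lgals3bp was at 429 ± 59.9 CPM there (n = 7), against 78.6 to 185 CPM as the mean of any other microglia-like or mitotic cluster. Lgals9 was at 237 ± 48.7 CPM there (n = 7), against 90.3 to 150 CPM. Lgals8 was highest at 97.9 ± 24.1 CPM in the cluster led by Csmd3 and Slc8a1 (n = 8) and lowest in mitotic cells, at 33.4 ± 6.38 CPM (n = 5).

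**Figure D3:**
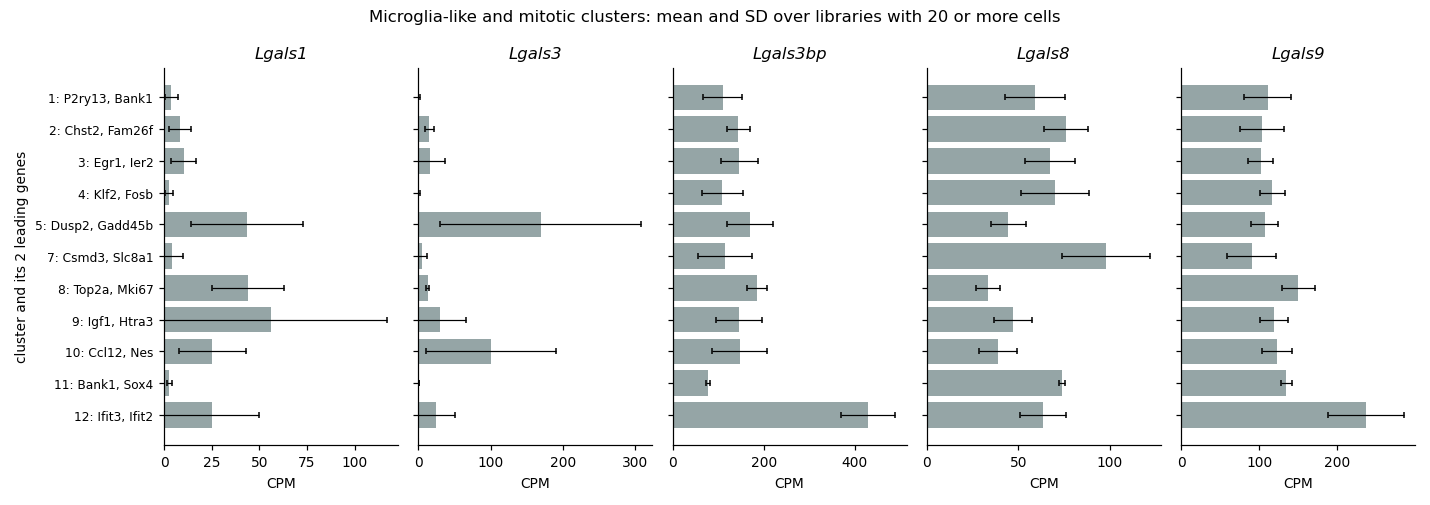
Bars give the mean CPM of each gene over libraries with at least 20 cells of the cluster and lines the SD, cut at 0, for the microglia-like clusters and the mitotic cluster (8), each labelled with its number and 2 leading genes. Lgals3bp reaches 429 CPM and Lgals9 237 CPM in the Ifit3, Ifit2 cluster, and Lgals3 169 CPM in the Dusp2, Gadd45b cluster.

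Co-expression with Lgals3 was measured inside microglia-like cells by comparing cells with an Lgals3 UMI with those without, each cell thinned to 2000 UMIs and the library kept as a term. An Lgals3 UMI was held by 444 of these cells and not by 20522. The 444 cells were 12, 7 and 16 in the Ctrl libraries, 83, 117 and 25 in D0 and 95 and 89 in D2. Lgals1 was higher in cells with Lgals3, with a log2 difference of 2.40 ± 0.25 and an adjusted p of 3.1e-19 (edgeR), and it was the only 1 of the other 4 members called, where 7.63% of 9787 genes were called. The edgeR test draws the spread of a gene partly from all genes, so a p this small does not measure the spread between libraries alone. The median difference was 0.01 over the 4 members and -0.15 over all genes tested. A Lgals1 UMI was found in 8.33, 0 and 18.8% of cells with Lgals3 in the Ctrl libraries against 0.411, 0.523 and 0.319% of those without. In D0 the shares were 14.5, 12 and 28.0% against 1.58, 3.07 and 4.28%, and in D2 7.37 and 15.7% against 2.09 and 5.90%. The share was thus higher with Lgals3 in 7 of 8 libraries, all but the second Ctrl library with its 7 cells. Over the 8 libraries 58 of 444 cells with Lgals3 held a Lgals1 UMI (13.1%, exact 95% interval 10.1 to 16.6%) and 396 of 20522 without (1.93%, 1.75 to 2.13%). Most cells with a Lgals1 UMI thus had no Lgals3 UMI at this depth. These shares pool groups that differ in both genes, and the intervals cover counting error only. By group the shares were 11.4 against 0.405% in Ctrl, 14.7 against 2.80% in D0 and 11.4 against 3.36% in D2.

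Lgals3bp, Lgals8 and Lgals9 did not pass the test, with log2 differences of 0.01 ± 0.18 (adjusted p = 0.987), -0.27 ± 0.24 (adjusted p = 0.603) and 0.01 ± 0.19 (adjusted p = 0.995). A Lgals3bp UMI was found in 28.8% of cells with Lgals3 (exact 95% interval 24.7 to 33.3%) and 21.2% of those without (20.7 to 21.8%), pooled over groups that differ in both genes. By library, its share was lower with Lgals3 in the third Ctrl (6.25 against 12.8%) and the first D2 library (23.2 against 28.3%), and higher in the rest. In the Ctrl libraries alone the Lgals1 difference was 4.24 with an adjusted p of 0.120 (35 cells with Lgals3). In cells without a UMI of any border-associated macrophage, monocyte, dendritic cell or neutrophil marker it was 1.65, with an adjusted p of 0.000479 (edgeR). This left 2, 2 and 4 cells with Lgals3 in the Ctrl libraries, 31, 42 and 10 in D0 and 31 and 26 in D2. Microglia-like cells as a class had 3 of the 11 neutrophil markers over 20 CPM, so this filter is not specific to other cell types. By the rule of the study for MAC2-positive cells, Lgals3 above the mean plus 1 SD of log-scaled UMIs over all kept myeloid cells, 1916 of 25795 cells were above the limit, of which 722 were microglia-like. By that rule, with cells not thinned, Lgals3bp was also called, at 0.36 and an adjusted p of 0.00179 (edgeR), where 2133 of 11862 genes were called.

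**Figure D4:**
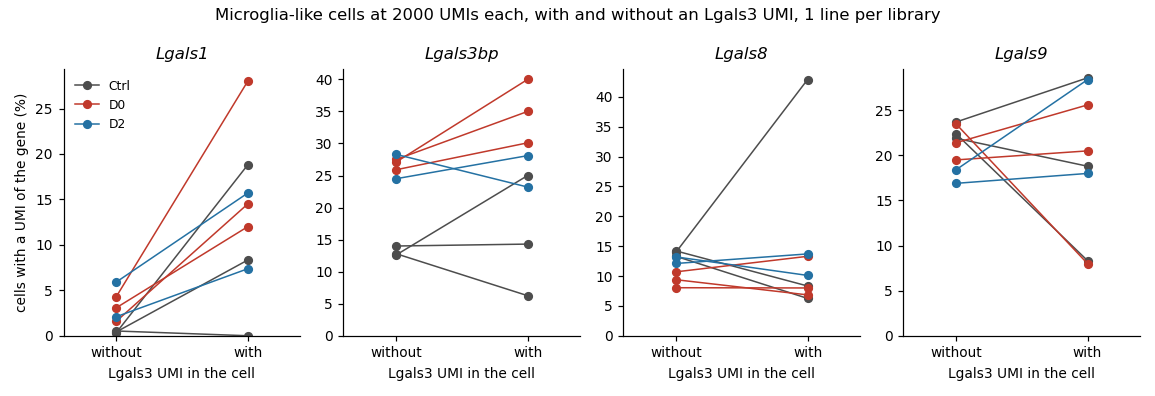
Each line is 1 library and joins the percentage of microglia-like cells with a UMI of the gene among cells without and with an Lgals3 UMI, all cells thinned to 2000 UMIs, coloured by group. Lgals1 rises in 7 of 8 libraries. The lines of Lgals3bp rise except in the third Ctrl and the first D2 library, and those of Lgals8 and Lgals9 go both ways. The Ctrl points with Lgals3 rest on 7 to 16 cells.

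The genes of galectin partners went both ways. In microglia-like cells 1 of the 14 partner genes was higher and 2 lower in D0, and 3 were higher and 4 lower in D2, where 19.7% and 18.6% of all genes were called. Their median log2 fold changes were -0.06 and -0.07, beside -0.05 and -0.03 over all genes tested. Cd44, a glycosylated hyaluronan receptor, had the largest rise, from 0.567, 1.28 and 0.652 CPM in Ctrl to 7.22, 11.5 and 7.62 CPM in D0 and 20.6 and 14.1 CPM in D2, a log2 fold change of 3.66 ± 0.35 (adjusted p = 0.000114) and 4.53 ± 0.37 (adjusted p = 3.9e-05, edgeR). Mertk, a phagocytic receptor tyrosine kinase for which galectin-3 has been described as a ligand, was at 350 to 403 CPM in Ctrl and at 211 to 251 CPM in the D0 and D2 libraries. Its log2 fold changes, with the scaling factors, were -0.52 ± 0.10 and -0.53 ± 0.12 (adjusted p = 0.00737 and 0.0111, edgeR). Tlr4, the lipopolysaccharide receptor, fell by 0.58 ± 0.13 and 0.73 ± 0.15 (adjusted p = 0.0130 and 0.00819). Itgam, which encodes CD11b, and Lrp1 fell in D2 by 0.71 and 0.50, and Ptprc and Lamp1 rose in D2 by 0.75 and 0.65. Trem2, a lipid receptor of microglia, had -0.11 ± 0.12 in D0 (adjusted p = 0.553) and Havcr2, the receptor of galectin-9, -0.21 ± 0.20 (adjusted p = 0.493).

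Among enzymes that build the N- and O-linked glycans galectins bind, 12 of 13 passed the filter. In D0 none of them rose and 2 fell, and in D2 1 rose and 2 fell, shares near the 19.7% and 18.6% of all genes called, with median log2 fold changes of -0.11 and -0.09. Mgat1, which starts complex N-glycans, was at 119 to 126 CPM in Ctrl and at 75.1 to 78.6 CPM in D0 and D2. Its log2 fold changes, with the scaling factors, were -0.47 ± 0.10 in D0 (adjusted p = 0.0118) and -0.55 ± 0.12 in D2 (adjusted p = 0.0100, edgeR). Gcnt1, which makes core-branched O-glycans, fell by 0.85 ± 0.17 and 0.92 ± 0.20 (adjusted p = 0.00914 and 0.0112). Mgat5, whose branched N-glycans are strong galectin ligands, had -0.25 ± 0.12 in D0 (adjusted p = 0.184, edgeR).

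Of the 15 interferon-stimulated genes, 14 were higher in D0 and 15 in D2, and none were lower, where 19.7% and 18.6% of all genes were called. Their median log2 fold changes were 1.07 and 1.67, beside -0.05 and -0.03 over all genes tested. This list, like the members and the other lists, was chosen with earlier results of these data known, so its counts are a description. Ifitm3, an antiviral membrane protein, rose from 27.1 to 38.7 CPM in Ctrl to 134 to 146 CPM in D0 and 157 and 199 CPM in D2, a log2 fold change of 2.38 ± 0.15 in D0 (adjusted p = 5.2e-06, edgeR). Ifit3 was the only one not called in D0, at 0.76 ± 0.25 (adjusted p = 0.0565). Lgals3bp and Lgals9, which shared the highest level in the interferon-response cluster, thus differed between groups. Lgals3bp rose in D0 and D2, whereas Lgals9 was called in neither. Lgals9 was at 128 to 131 CPM in Ctrl, 120 to 143 CPM in D0 and 113 and 114 CPM in D2. That difference between the genes was not tested. In cells with an Lgals3 UMI, where 7.63% of all genes were called, 4 of the 15 were higher and none lower (Isg15, Ifit3, Irf7 and Rsad2, with log2 differences of 0.84 to 1.59), 2 of 13 partners were lower (Mertk and Itgam) and 1 of 12 glycan enzymes was lower (Mgat4a).

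**Figure D5:**
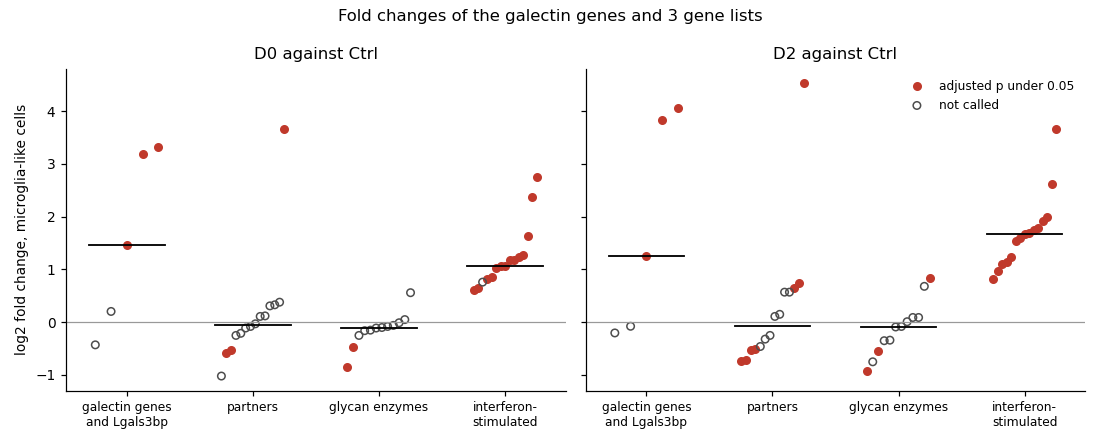
Each point is the log2 fold change of 1 gene in microglia-like cells, D0 against Ctrl on the left and D2 against Ctrl on the right, red where the adjusted p of edgeR was under 0.05 and open where not, with the median of each list as a line. The medians are 1.46 and 1.25 for the galectin genes and Lgals3bp, -0.06 and -0.07 for partners, -0.11 and -0.09 for glycan enzymes and 1.07 and 1.67 for interferon-stimulated genes.

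Across 59 sums of UMIs by class and library (11 classes, 6517 genes of at least 20 CPM), the genes with the highest Pearson correlation of log2(CPM + 10) are given as a description, since sums of 1 library share its depth and preparation and sums of 1 class its cell type. For Lgals3 they were Plbd1 (r = 0.943), Gpr141 (0.923), Pira2 (0.909), Cfp (0.902) and Napsa (0.900). For Lgals1 they were Crip1 (0.777), Cox7b (0.769), Olfm1 (0.765), Pdlim1 (0.761) and Anxa6 (0.750), and for Lgals3bp Glmp (0.899), St6galnac4 (0.812), AU020206 (0.808), Plgrkt (0.802) and Os9 (0.798). For Lgals9 they were Hhex (0.823), Tmbim6 (0.790), Tpst2 (0.789), Ly6e (0.776) and Fli1 (0.759), and for Lgals8 Mef2a (0.754), Tacc1 (0.732), Zmiz1 (0.728), Kansl1 (0.716) and Pan3 (0.703). Among the members, r was highest between Lgals3bp and Lgals9 (0.668), was 0.310 between Lgals1 and Lgals3 and was lowest between Lgals1 and Lgals9 (-0.473).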

How the data were processed

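The deposited matrices hold UMI counts per gene and cell, which the authors made with Cell Ranger against mm10. Version 3.1.0 is given in the labels, and the matrix headers name 3.0.2 for 6 of the 9 libraries. No column of sample values was left unused. A cell was kept if its UMIs lay between 500 and 20000, if 200 or more genes were detected and if mitochondrial genes took no more than 10% of its UMIs. No doublet caller was run, so doublets were limited only by the upper UMI limit. Cells of 8 libraries were clustered with scanpy 1.11.5 and Leiden (leidenalg 0.10.2) on 3000 variable genes, 10 principal components and 20 neighbours at resolution 0.6, without the Lgals and Grifin genes, and clusters were named from marker lists. The third D2 library was left out, as in the study, and its cells took the class most common among their 30 nearest clustered cells. UMIs were summed per library and class with at least 20 cells, and tested with edgeR 4.0.16 (quasi-likelihood test, TMM, filterByExpr, Benjamini-Hochberg adjustment over all genes, threshold 0.05) in R 4.3.3. Values after ± are SE for log2 fold changes and SD for levels and shares. Shares of cells were compared on cells thinned to 2000 UMIs, with exact permutation tests over libraries (scipy 1.17.1). The scripts were tested on simulated data. Each library came from its own mice, 1 or 2 per library. In microglia-like cells, deviations from the group means correlated by 0.418, 0.199 and 0.178 in the 3 same-numbered pairs of Ctrl and D0 libraries. The replicate number was also fitted as a block, as an alternative setting. The labels give no pairing, so any pairing rests on these data alone, and the third Ctrl library correlated more with the second D0 library (0.299).

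The genes named are the 5 members, the other Lgals and Grifin genes, the partner, glycan enzyme and interferon-stimulated lists, and the 5 genes most correlated with each member. Cluster-leading and carry-over marker genes were also named. The members and lists were chosen with earlier results of these data known. Alternatives were DESeq2 1.42.0, other scaling, filters, depths, UMI limits and resolutions, fits of only the groups compared, a Cell Ranger version term, a replicate block, mitotic cells left out, the third D2 library included, and each replicate left out. The comparisons of fold changes between classes, their fits without each replicate, and the Lgals3 split in libraries with 20 or more such cells were added after the data were seen.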

Additional observations from a re-analysis of the deposited data

Results flagged for a closer look

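The fold change in D0 differed between cell classes in the edgeR fit of each class with microglia-like cells, for 6 differences of log2 fold change. For Lgals1 they were -3.05 in dendritic cell-like and -2.12 in monocyte-like cells. For Lgals3 they were -2.27 in dendritic cell-like, -2.56 in monocyte-like and -2.34 in neutrophil-like cells, and for Lgals3bp the difference was -1.26 in monocyte-like cells. In each of them the fold change was the smaller one outside microglia-like cells. For Lgals3 and Lgals1, microglia-like cells started from low Ctrl levels, 2.03 to 6.28 CPM and 2.76 to 3.36 CPM. In monocyte-like cells Lgals3 was at 1537 and 1549 CPM in Ctrl and at 1955, 2330 and 2099 CPM in D0. The first Ctrl library, left out for its 11 such cells, had 2095 CPM. In the libraries compared, a smaller fold change there is thus not a smaller change in CPM.

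In the third D2 library, which was in no comparison, Lgals1 was at 257 CPM in microglia-like cells and Lgals3 at 33.6 CPM, both above every Ctrl library. Of these 640 cells 559 were in the mitotic cluster. In the other 81 cells Lgals1 was at 242 CPM and Lgals3 at 28.2 CPM. Lgals3bp was at 51.8 CPM over all 640 cells, under every Ctrl library, but at 114 CPM in the 81 cells, above them. Lgals8 was at 16 CPM and 18.2 CPM, under every Ctrl library both times. The 10 microglia markers summed to 9061 CPM over the 640 cells, against 17437 to 32741 CPM in microglia-like cells of the other libraries. The name microglia-like is thus less sure for them. In that library 37.3% of barcodes were over the upper UMI limit, against 1.13 to 24.2% in the others.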

How the results depend on the processing

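No called fold change of a member changed direction in 291 alternative values, and 39 of 524 values of members that were not called did. Among the Ctrl libraries only the first has the Cell Ranger version of the D0 and D2 libraries compared. With a term for that version, the comparisons with Ctrl therefore rest on this library. In microglia-like cells the number of members called stayed within 3 to 4 in D0 and at 3 in D2 when each replicate was left out. The number of genes called in D0 (2440) was 1403 with a term for the Cell Ranger version, 1369 with cells thinned to 2000 UMIs, 499 with the third D2 library included and 1282 without mitotic cells, and 1240 to 2526 without 1 replicate. In D2 (2305) it was 1179, 1474, 1306 and 1426 in the same order, and 1094 to 3087. In D2 against D0 (0), DESeq2 called 28 genes and the fit without a filter on low counts 41. In kept myeloid cells 1 member was called in D0 with the version term and 0 with the third D2 library included, and 1 in D2 with the version term, with 1 to 4 and 1 to 3 without 1 replicate. Genes called there in D0 (2609) were 1104, 1419 and 479 with the version term, thinned cells and the third D2 library, and 1093 to 2857 without 1 replicate. In D2 (2247) they were 930 with the version term, 1392 with thinned cells and 815 to 2952 without 1 replicate, and DESeq2 called 27 in D2 against D0. For cells with against without an Lgals3 UMI, 2 members were called by the mean plus 1 SD rule and 0 in Ctrl libraries alone. Genes called there (747) were 1301 at 4000 UMIs per cell, 407 by DESeq2, 2133 by the mean plus 1 SD rule, 383 in cells without a UMI of other myeloid markers and 103 in Ctrl libraries alone. Without 1 replicate, which left 1 Ctrl library assumed to vary like the others where it was a Ctrl library, 0 to 2 genes were called in dendritic cell-like, 0 to 92 in monocyte-like and 0 to 104 in neutrophil-like cells. The differences from microglia-like cells had 1 to 2, 2 to 3 and 1 to 2 members and 101 to 347, 129 to 361 and 61 to 150 genes called in these classes. With the replicate block, the log2 fold change of Lgals1 was 3.24 in D0 and 3.70 in D2, and Lgals8 passed the test in D0 (-0.44, adjusted p = 0.0337, edgeR), also in kept myeloid cells (-0.46, adjusted p = 0.0338). The block changed no other call of a member in these cells, and was run in no other class. By their labels the libraries share only a number. Outside D0 against Ctrl in microglia-like cells there were under 3 same-numbered pairs, or 1 of the 3 correlations was under 0.1. The latter held in D0 against Ctrl in kept myeloid cells (0.418, 0.186 and 0.0996). Border-associated macrophage-like cells could not be fitted. The causes of these changes were not tested. The 7 to 16 Ctrl cells with an Lgals3 UMI in each library limit that comparison.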
